A study of Homo sapiens with 12 samples.

Results

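Cells of the ovarian cancer line Ovcar8 that overexpressed CCNE1 were compared with control cells of the same line by RNA sequencing. The comparison used 6 of the 12 libraries of the series, 3 control and 3 with CCNE1, and was placed by the sample labels. It covered 15378 genes that had enough counts to be tested out of 58735 in the deposited count table. The remaining 6 libraries, which add 1 of 2 short hairpin RNAs targeting TMLHE to CCNE1, entered the fit through the filter on low counts, the scaling between libraries and the estimate of spread between replicates. With the same genes tested but scaling and spread taken without these 6 libraries, 5970 genes were called in place of 6802. When a difference of at least 2-fold was asked as well, 703 were called in place of 941.

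Ovcar8 is an established line that came from a high-grade serous carcinoma of the ovary. All cells, controls included, were transduced with lentivirus and then selected with puromycin in serum-containing RPMI-1640 medium. The labels describe 1 population of each kind, so the effect of CCNE1 and anything else that differs between them cannot be told apart. Nor do they say whether the 3 replicates of a group came from separate cultures, and the spread behind each p-value may therefore be technical. In RNA from whole cultures, fewer cells that express a gene and less RNA per cell cannot be told apart either.

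CCNE1 encodes cyclin E1, which binds and activates the kinase CDK2 at the border of G1 and S phase. Active cyclin E1 with CDK2 phosphorylates the retinoblastoma protein, which releases E2F factors, and it takes part in firing replication origins. CCNE1 is recurrently amplified in high-grade serous ovarian cancer, where it is known for replication stress.

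The control libraries held 14.1 to 16.6 M counts and the CCNE1 libraries 15.8 to 21.5 M, M standing for 1e6 counts. Levels are given in CPM, counts per 1e6 counts of each library after scaling between libraries, and are compared between groups but not between genes. A gene was called changed where the Benjamini-Hochberg adjusted p of edgeR's quasi-likelihood test was under 0.05. By this rule 44.2% of the tested genes were called, 25.1% higher and 19.1% lower with CCNE1. The excess of rises depended on the fit. With scaling and spread from the compared groups alone, 3062 genes were called higher and 2908 lower, in place of 3866 and 2936. Only 6.12% were called and at least 2-fold different. The median log2 fold change over all tested genes was 0.05, and it was 0.01 after each library's smooth trend over GC content and transcript length was taken out. GC content moved with the direction of change, as described at the end, so the median with that trend removed follows the median as counted in brackets.

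The genes that mark the comparison were separated between the groups by wide margins. CCNE1 (chromosome 19, 29811898 to 29824308, build GRCh38) had 33.5, 34.1 and 31.6 CPM in the control libraries and at 1027, 1014.5 and 963 CPM with CCNE1. No library came near the other group, and the log2 fold change was 4.92 ± 0.04 (SE, edgeR adjusted p = 2.88e-44). BRCA1, a core gene of homologous recombination (chromosome 17, 43044295 to 43170245), stood at 3.21, 1.82 and 2.57 CPM in control and 38.1, 35.2 and 38.5 with CCNE1, a log2 fold change of 3.86 ± 0.12 (adjusted p = 1.34e-25). EMC10, a subunit of the complex that inserts proteins into the endoplasmic reticulum membrane (chromosome 19, 50476400 to 50490870), was at 45.8, 48.1 and 41.3 CPM in control and at 0, 0.22 and 0.253 with CCNE1. Its log2 fold change was -8.00 ± 0.29 (adjusted p = 4.08e-23). KRT7, a keratin of simple epithelia (chromosome 12, 52232520 to 52252186), was at 259, 261 and 276 CPM in control and 1181, 1177 and 1171 with CCNE1. Its log2 fold change was 2.15 ± 0.03 (adjusted p = 3.45e-35).

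Genes within 200 kb of CCNE1 and BRCA1 changed far less than these 2 genes themselves. Beside CCNE1, POP4 and PLEKHF1 were not called. C19orf12 fell by 0.37 on the log2 scale. URI1, an unconventional prefoldin that neighbours CCNE1 on the amplified segment of many tumours, rose by 0.29, a call that was lost without the GC and length trend, where the value was 0.01. Around BRCA1 the direct neighbours NBR2 and NBR1 were not called. VAT1 fell by 0.48 and RND2 by 0.45, and RPL27 rose by 0.31. TMEM106A fell by 0.68, and its call was lost without control replicate 1 and also without the GC and length trend.

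The surroundings of EMC10 differed more. FAM71E1, whose annotated span of 50466785 to 50476753 on chromosome 19 overlaps the start of EMC10, had 45, 38 and 25 counts in the control libraries and 0 in every CCNE1 library. Of its exon bases 20.7% are shared with another annotated gene. Without a known strand setting its counts may not be told apart from those of EMC10. The non-muscle myosin MYH14 stood at 1.74, 1.43 and 1.57 CPM in control and 0.299, 0.385 and 0.444 with CCNE1, a log2 fold change of -2.04. In the same neighbourhood the catalytic DNA polymerase subunit gene POLD1 rose by 0.24 and JOSD2 by 0.50. Next to KRT7, the keratin gene KRT80 rose by 0.60, while KRT81 and KRT87P were not called. KRT7-AS, which overlaps KRT7 and cannot be told apart from it without a known strand setting, rose by 1.52.

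A few genes had no count at all in one group. Those with at least 10 counts in each library of the other group numbered 8. GLB1L2, a gene of the beta-galactosidase family, had 0 counts in all 3 control libraries and 49, 12 and 14 with CCNE1. It was at least 20.3-fold higher with CCNE1, taking 3 counts over the group as the floor for a count of 0, relative to the total counts of each group. Replicate 1 held most of these counts, on whose sum the bound rests. The fitted log2 fold change of 7.84 was 6.74 without replicate 1. The other 7 were seen only in control, and the lowest control library of each held 11 or more counts. TP53I11, a p53-induced gene, had 76, 42 and 71 counts in control and was at least 77.5-fold lower with CCNE1. FBLL1, a paralogue of fibrillarin, had 40, 47 and 37 counts and was at least 50.9-fold lower. For FAM71E1 the bound was 44.3-fold, with the limit of its overlap with EMC10 given above.

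The remaining 4 had 11 to 22 counts per control library. The long noncoding RNA TLX1NB was at least 21.3-fold lower with CCNE1, the serine protease gene HTRA3 at least 20.5-fold, and MARVELD2, which encodes the tight junction protein tricellulin, at least 17.2-fold. WISP2, a secreted matricellular protein gene, was at least 16.0-fold lower. Of the exon bases of TLX1NB, 19.6% are shared with another annotated gene, so its counts may include reads of that gene. These bounds allow for counting error only in the group without a count. The counts of the other group were taken as they stand, so their counting error and the spread between replicates are not covered. Each bound therefore holds only for the counts seen.

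Gene families were then taken by symbol, and 60 families had at least 5 tested protein-coding members. The family median was above 0 in 34 and below 0 in 26. In 18 families it was 0.3 or more away from 0, and in none of these did its sign change without the GC and length trend or with scaling by total counts. Among all 60, 15 changed sign with the trend removed. The plot of family medians by library sets these 18 beside all tested genes.

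**Figure D1:**
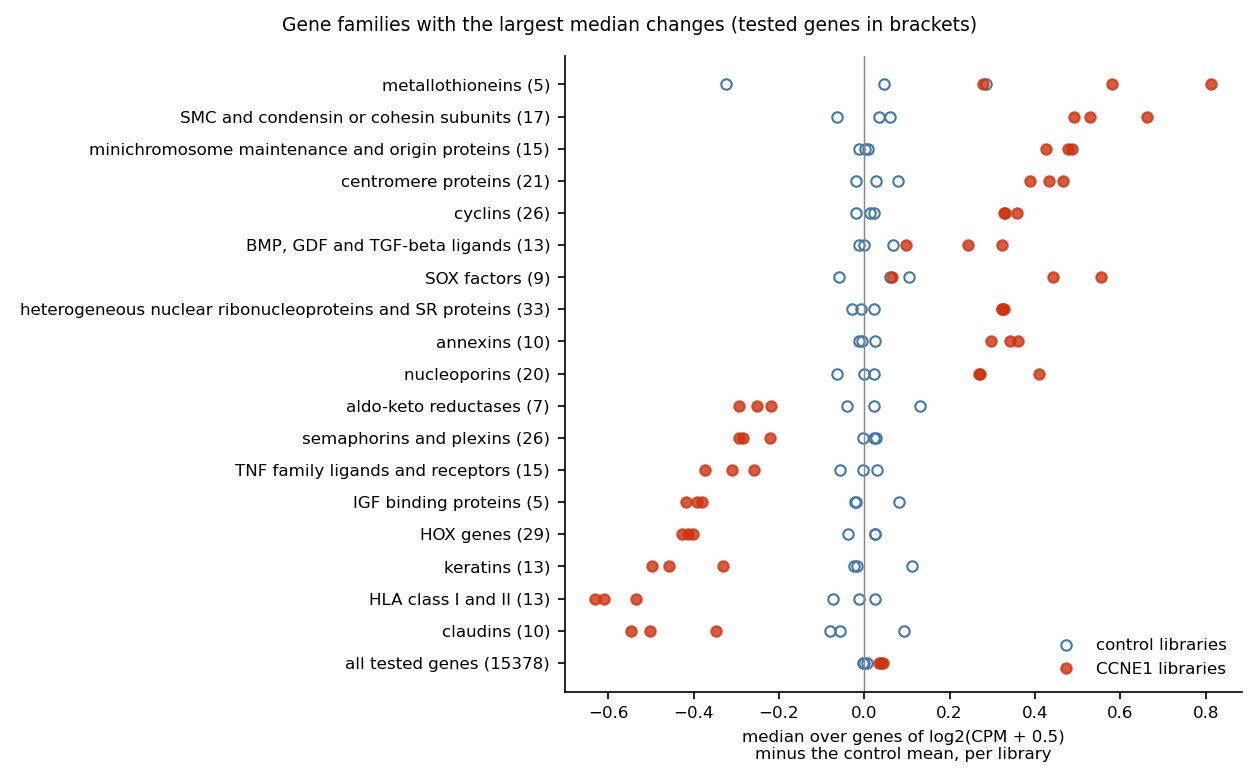
Median, over the tested members of each gene family, of log2(CPM + 0.5) minus the control mean, with 1 point per library (3 control, open; 3 CCNE1, filled). The library medians of the groups do not overlap for 16 of the families, while metallothionein and SOX libraries overlap. The families were drawn for a median change of at least 0.3 between these same groups. All tested genes together lie near 0, and their library medians do not overlap either (control -0.0028 to 0.0059, CCNE1 0.035 to 0.043).

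Families that copy and segregate chromosomes were mostly higher. Of 17 tested genes of the SMC, condensin and cohesin complexes, which hold and fold chromosomes, 14 rose and 1 fell, with a median of 0.57 (0.34 with the trend removed). The condensin core gene SMC4 stood at 15.0, 12.8 and 15.2 CPM in control and 32.9, 37.0 and 31.9 with CCNE1, so every CCNE1 library lay above every control library. Its log2 fold change was 1.25 ± 0.08 (adjusted p = 9.83e-16). The cohesin genes RAD21 and SMC3 rose by 0.68 and 0.88, and the condensin II gene NCAPG2 by 0.57. The member that fell was STAG3, a cohesin subunit known from meiosis, at -0.37.

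The minichromosome maintenance (MCM) and origin recognition genes, which license replication origins and form the core of the replicative helicase, gave 11 higher and 1 lower of 15 tested, with a median of 0.49 (0.31). MCM5 stood at 326, 336 and 339 CPM in control and 554, 533 and 516 with CCNE1, a log2 fold change of 0.68 ± 0.04 (adjusted p = 6.25e-18). MCM4 and MCM6 both rose by 0.49, and MCM10, needed to activate the helicase, by 1.05. MCM3 was the lower member at -0.16, with 196, 177 and 191 CPM in control and 158, 186 and 160 with CCNE1. Its libraries overlapped between the groups, and its call was lost under several settings.

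Among 21 centromere protein genes, 14 rose and 1 fell, with a median of 0.48 (0.23). CENPF, a kinetochore protein of G2 and mitosis, stood at 9.34, 13.8 and 9.69 CPM in control and 17.3, 23.4 and 18.7 with CCNE1, a log2 fold change of 0.87 ± 0.12 (adjusted p = 1.70e-07). CENPM rose by 0.70 and CENPB, which binds a repeat of centromeric DNA, by 0.26. CENPH rose by 0.51, a call that was lost without the GC and length trend (0.17). CENPV fell by 0.48.

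Cyclins, including CCNE1 itself, gave 17 higher and 2 lower of 26, with a median of 0.44 (0.15). The S and G2 phase cyclin CCNA2 stood at 43.6, 46.0 and 52.6 CPM in control and 79.6, 77.9 and 79.5 with CCNE1, a log2 fold change of 0.74 ± 0.06 (adjusted p = 5.38e-13). The G1 cyclin CCND1 rose by 0.81. Members of the transcription branch went both ways, since CCNC, a Mediator subunit, rose by 1.00 and CCNK, the partner of CDK12, fell by 0.49. The share of cyclins called higher was thus above the 25.1% of all tested genes.

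Promoters of these families were read from the RefSeq table of GRCh38.p14, which gives 250 bases before and 50 after a gene's start and matched 10829 of the tested genes. They are shown for SMC4, CENPF and MCM6 because these members rose in 3 of the leading families and together hold all 3 motifs searched that belong to cell cycle promoters. The motifs were the E2F site (TTTCCCGC, TTTCGCGC, TTTGCCGC or TTTGGCGC), the cell cycle homology region (TTTGAA) and the CCAAT box (CCAAT), each on both strands. In the sequences below, capitals mark these letters.
SMC4: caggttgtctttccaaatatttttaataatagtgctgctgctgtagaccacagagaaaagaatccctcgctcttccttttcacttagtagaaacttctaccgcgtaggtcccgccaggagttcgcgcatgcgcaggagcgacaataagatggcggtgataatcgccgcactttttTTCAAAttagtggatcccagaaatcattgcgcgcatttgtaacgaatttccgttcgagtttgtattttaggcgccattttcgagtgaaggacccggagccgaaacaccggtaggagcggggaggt
CENPF: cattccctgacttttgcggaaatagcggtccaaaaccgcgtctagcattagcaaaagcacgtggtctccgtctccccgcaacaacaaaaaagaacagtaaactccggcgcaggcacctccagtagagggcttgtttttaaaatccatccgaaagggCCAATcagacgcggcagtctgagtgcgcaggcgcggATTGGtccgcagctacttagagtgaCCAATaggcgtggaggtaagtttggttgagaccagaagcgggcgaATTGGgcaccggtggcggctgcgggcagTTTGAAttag
MCM6: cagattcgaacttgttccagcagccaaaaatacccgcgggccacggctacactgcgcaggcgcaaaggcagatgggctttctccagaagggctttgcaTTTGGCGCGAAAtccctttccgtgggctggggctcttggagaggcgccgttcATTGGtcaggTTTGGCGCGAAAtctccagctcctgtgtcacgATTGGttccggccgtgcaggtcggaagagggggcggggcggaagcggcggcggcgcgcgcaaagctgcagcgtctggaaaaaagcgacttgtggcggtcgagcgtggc
The SMC4 window is chr3:160399400-160399699 on the plus strand and holds 1 cell cycle homology region on the opposite strand, at position -75 from the start. The CENPF window is chr1:214602945-214603244, also on the plus strand, and holds 4 CCAAT boxes and a cell cycle homology region at position 40. The MCM6 window, chr2:135876394-135876693 on the minus strand, holds 2 stretches in which E2F letters on both strands overlap, starting at -152 and -90, and CCAAT boxes at -100 and -58.

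The share of matched promoters with these letters was compared between genes that rose and genes that fell, as a description. The cell cycle homology region was found in 9.30% of all matched tested promoters, in 11.4% of those of genes called higher and in 6.82% of those of genes called lower. Among genes at least 2-fold higher the share was 15.5%, and among those at least 2-fold lower 11.3%, so both were above that of all tested genes. The E2F letters were in 5.32%, 6.75% and 4.82% in the same order. CCAAT was in 36.3%, 37.4% and 36.8%, and the AP-1 letters TGANTCA were in 4.60%, 4.59% and 4.36%. In the sets at least 2-fold higher and lower, the E2F letters were in 4.47% and 2.56% and the AP-1 letters in 7.89% and 5.13%. Over all 27305 promoters of the table, 3.33% held the E2F letters and 15.4% the cell cycle homology region. By family, 6 of 13 matched MCM and origin genes held the E2F letters and none the cell cycle homology region. It was in 6 of 15 SMC family genes and 5 of 17 centromere genes. Of 24 cyclin genes, 1 held the E2F letters and 3 the letters of the cell cycle homology region. The CCNA2 promoter held a single CCAAT box and neither of these sets of letters. Only the exact letters given were searched, so other forms of these sites were not counted. The letters of the cell cycle homology region are rich in A and T, and GC content also moved with the direction of change. The base composition and the motif therefore cannot be told apart here.

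RNA-binding and nuclear pore families were also mostly higher. Of 33 tested heterogeneous nuclear ribonucleoprotein and SR splicing factor genes, 18 rose and 4 fell, with a median of 0.36 (0.15). The abundant nuclear RNA-binding proteins HNRNPU, HNRNPA2B1 and HNRNPM rose by 0.63, 0.56 and 0.65, and the splicing factor SRSF3 by 0.54, while HNRNPL and HNRNPF fell by 0.35 and 0.22. Nucleoporins gave 12 higher and 5 lower of 20, with a median of 0.32 that was 0.08 with the trend removed. The inner ring gene NUP205 rose by 0.53 and the Y-complex gene NUP107 by 0.84, whereas NUP98 fell by 0.51 and the membrane nucleoporin NUP210 by 0.33.

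Cytosolic ribosomal protein genes mostly rose, by small amounts. Of 80 tested, 51 rose and 7 fell, with a median of 0.19 that became 0.25 with the trend removed. RPL31 stood at 1615, 1701 and 1587 CPM in control and 2400.2, 2437 and 2341 with CCNE1, a log2 fold change of 0.55. RPS3A rose by 0.49. Of those that fell, RPL23A was at -0.43 and RPL14 at -0.26, and RPL3, RPS13 and RPS20 were at -0.09, -0.09 and -0.10. The 2 with few counts were RPS10 at -0.89 and RPL3L, a paralogue of RPL3 known from muscle, at -2.70, the one fall of at least 2-fold. RPL3 was at 0.13 with the trend removed, and the calls of RPS13, RPS20 and RPS10 were each lost without at least 1 single library. These 5 further genes were named after their values were seen. Proteasome subunits gave 22 higher and 7 lower of 43 with a median of 0.15 (0.11), and kinesins 17 higher and 8 lower of 36 with a median of 0.13 (0.08).

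Secreted and surface families that rose did so through a few members. In the BMP, GDF and TGF-beta ligand family 6 of 13 rose and 2 fell, with a median of 0.42 (0.29). INHBA, which encodes the activin A subunit, stood at 5.65, 7.61 and 5.38 CPM in control and 17.3, 18.7 and 19.5 with CCNE1, a log2 fold change of 1.58 ± 0.13 (adjusted p = 1.40e-12). GDF6 rose by 1.88, while INHBE fell by 1.34 and BMP1, a metalloprotease that was grouped by its name, by 0.39. Among 13 cadherins 5 rose and 1 fell, with a median of 0.30 (0.24). CDH23 rose by 2.69 from a low level, CDH4 by 1.19 and CDH22 by 1.26. N-cadherin (CDH2) rose by 0.29, a call that was lost with the trend removed.

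Annexins, calcium-dependent membrane-binding proteins, split by member. Of 10 tested, 7 rose and 2 fell, with a median of 0.33 (0.32). ANXA8 rose by 0.93, ANXA1 by 0.85 and ANXA7 by 0.70. ANXA2, the partner of S100A10 at the cell surface, fell: it stood at 3833, 3859 and 3921 CPM in control and at 1790.2, 1808 and 1758 with CCNE1. This was a log2 fold change of -1.12 ± 0.03 (adjusted p = 3.84e-29), so the family's direction and that of its member with the most counts were opposite. Metallothioneins had the highest family median, 0.69 (0.93), from 5 tested genes of which 3 rose, among them MT2A by 0.54. The family medians of the libraries overlapped between the groups, as they did for the 9 SOX genes, with a median of 0.37 (0.45).

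The HLA genes, which present peptides to T cells, stood lowest together with the claudins. Of 13 tested HLA genes 10 fell, none rose, and all 13 had a fold change below 0. The median was -0.62 (-0.41 with the trend removed). All 5 tested class I genes fell, with a median of -0.53 (-0.34), and 5 of 8 class II genes fell, with a median of -0.63 (-0.50). HLA-B stood at 886, 888 and 913 CPM in control and 579, 576 and 543 with CCNE1, a log2 fold change of -0.66 ± 0.03 (adjusted p = 9.07e-19). HLA-C fell by 0.62, HLA-E by 0.53 and the class II gene HLA-DQB1 by 0.90. HLA genes resemble each other in sequence, and how reads that match several of them were counted is not given in the sources used here. Interferon-induced families gave 3 higher and 10 lower of 22, with a median of -0.21 (-0.15).

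Claudins, the strand-forming proteins of tight junctions, gave 4 lower and 1 higher of 10, with a median of -0.62 (-0.57). CLDN15 stood at 12.6, 9.83 and 11.5 CPM in control and 5.53, 6.27 and 8.68 with CCNE1, a log2 fold change of -0.73 ± 0.18 (adjusted p = 0.00105). CLDN4 fell by 1.32, a call that was lost without control replicate 1, and CLDN9 by 1.25. CLDN11 rose by 0.31. The calls of CLDN9 and CLDN11 were each lost under at least 1 other setting.

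HOX genes, the homeodomain factors that carry positional identity along the body axis, differed by cluster. Over all 29 tested, none rose and 11 fell. In the HOXB cluster on chromosome 17, 7 of 8 tested genes fell, 5 of them at least 2-fold, and all 8 had a fold change below 0, with a median of -1.06 (-0.90). HOXB9 stood at 106, 110.4 and 109 CPM in control and 46.7, 43.3 and 46.5 with CCNE1, a log2 fold change of -1.25 ± 0.07 (adjusted p = 3.41e-18). HOXB2 fell by 1.17 and HOXB4 by 1.03. In the HOXA cluster none of 8 tested genes was called, with a median of -0.23 (-0.27). The HOXC cluster had 3 of 8 lower with a median of -0.41 (-0.20), and the HOXD cluster 1 of 5, HOXD13 at -0.87, with a median of -0.42 (-0.21). The differences between clusters were not tested.

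Keratins, the intermediate filament proteins of epithelia, split by chromosome. Keratins of chromosome 12, which holds the type II cluster and KRT18, gave 4 higher and none lower of 6, with a median of 0.79 (0.97). Keratins of the type I cluster on chromosome 17 gave none higher and 5 lower of 7, and all 7 had a fold change below 0, with a median of -0.78 (-0.59). KRT18 stood at 1303, 1295 and 1330.0 CPM in control and 2536, 2568 and 2612 with CCNE1, and KRT8, its filament partner, rose by 0.45. KRT17 stood at 49.2, 49.2 and 54.1 CPM in control and 12.5, 12.9 and 13.9 with CCNE1, a log2 fold change of -1.95 ± 0.11 (adjusted p = 4.28e-17). The plot of HOX genes and keratins by cluster shows these opposite sides.

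**Figure D2:**
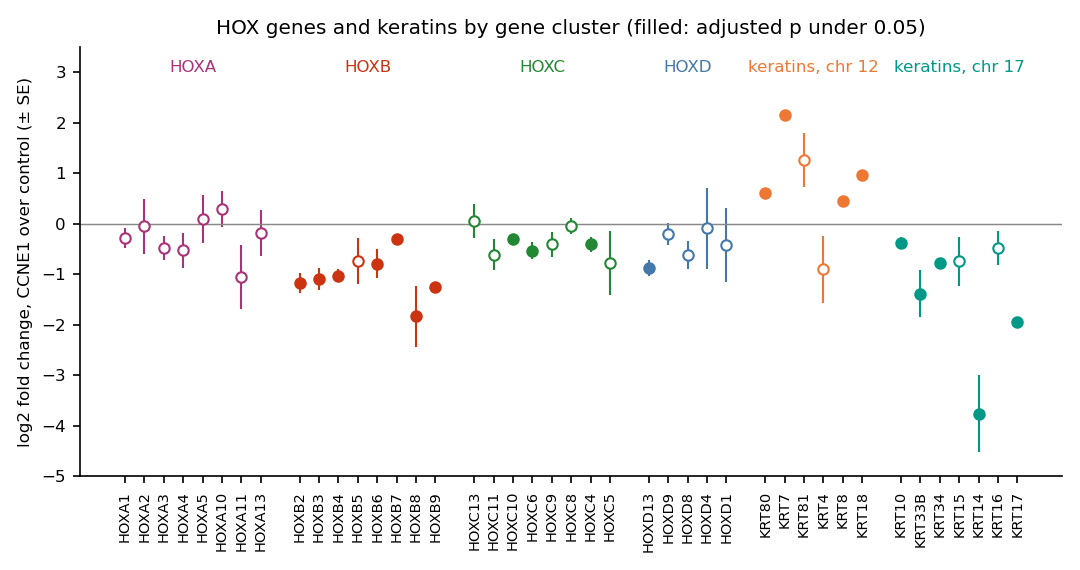
Log2 fold change of CCNE1 over control (± SE, 3 libraries a group) for each tested HOX gene and keratin, ordered along its chromosome within its cluster and filled where the adjusted p was under 0.05. The 8 HOXB genes and the 7 keratins of chromosome 17 all lie below 0, while 4 of the 6 keratins of chromosome 12 are called above 0.

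Other signalling and surface families leaned lower. Semaphorins and plexins, which guide axons and cell movement, gave 11 lower and 4 higher of 26, with a median of -0.33 (-0.28). SEMA3B stood at 35.1, 35.6 and 34.8 CPM in control and 10.2, 11.9 and 8.81 with CCNE1, a log2 fold change of -1.77 ± 0.13 (adjusted p = 1.04e-13). SEMA4C fell by 0.40, while SEMA3C rose by 0.85 and SEMA7A by 0.76. Of 15 TNF family ligands and receptors 7 fell and none rose, with a median of -0.34 (-0.22), including the death receptor TNFRSF10B at -0.45 and the ligand TNFSF9 at -0.72. The receptors TNFRSF12A and TNFRSF1A were at -0.23 and -0.22, and the call of the latter was lost under at least 1 other setting.

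Among 15 serpins, 8 fell and 1 rose, with a median of -0.28 (-0.19). SERPING1, the complement C1 inhibitor, stood at 16.4, 15.4 and 13.8 CPM in control and 3.06, 5.23 and 2.79 with CCNE1, a log2 fold change of -2.02 ± 0.22 (adjusted p = 7.71e-10). SERPINF1 fell by 1.41 and SERPINB7 by 1.30. TRIM ubiquitin ligases gave 19 lower and 6 higher of 49, with a median of -0.23 both ways. TRIM58, TRIM65 and TRIM27 fell by 0.76, 0.72 and 0.59, while TRIM33 rose by 0.78 and TRIM44 by 0.51. Tubulins gave 11 lower and 4 higher of 22, with a median of -0.12 that was -0.01 with the trend removed. TUBG2 fell by 0.91 and TUBB6 by 0.40, whereas TUBA4A rose by 0.63.

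Several large families showed no common direction. Solute carriers gave 48 higher and 48 lower of 216, TMEM proteins 35 higher and 37 lower of 179, CCDC proteins 17 and 15 of 99, and polycomb and trithorax enzymes 13 and 13 of 43. Zinc finger genes of the ZNF series were called less often than all tested genes, 25.9% of 455 beside 44.2%, a difference that was not tested. Their median level was 2.74 CPM. Their median was 0.13, and it was -0.02 with the trend removed. Those of chromosome 19 gave 30 higher and 15 lower of 222, and the rest 39 and 34 of 233.

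By chromosome, medians were modest and followed GC content in part. Chromosome 13 had 107 higher and 18 lower genes of 278, with a median of 0.35 that was 0.13 with the trend removed. Chromosome 10 had 243 higher and 49 lower of 623, with a median of 0.29, and it had the largest nuclear median with the trend removed, 0.17. At the other end chromosome 17 had 139 higher and 325 lower of 969, with a median of -0.15 (-0.08), and chromosome 16 had 112 higher and 191 lower of 714, with a median of -0.10 (-0.04). Chromosomes 1, 6, 8, 12, 18, 19 and 22 changed sign with the trend removed. Those of chromosomes 18, 19 and 22 went from 0.13 to -0.07, from -0.06 to 0.03 and from -0.08 to 0.03. Of 33 tested mitochondrial genes 19 fell and 1 rose, with a median of -0.27 (-0.37).

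**Figure D3:**
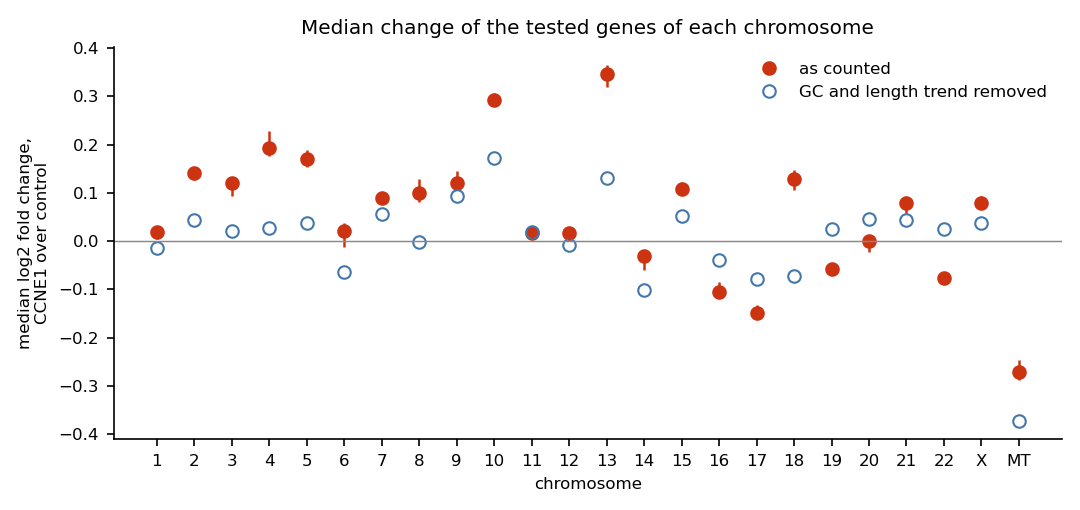
Median log2 fold change of the tested genes of each chromosome as counted (filled, with the range over leaving out each of the 6 libraries as a line) and without the GC and length trend (open). Chromosomes 13 and 10 lie highest as counted, chromosome 10 remains above the other nuclear chromosomes with the trend removed, and the mitochondrial genome lies lowest in both.

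In windows of 5 Mb with at least 10 tested genes, of which there were 481, the lowest 3 medians adjoined each other on the short arm of chromosome 8. From 5 to 10 Mb, 7 of 12 tested genes fell and 1 rose, with a median of -0.67 (-0.67). From 10 to 15 Mb, 9 of 14 fell and 1 rose, with a median of -0.76 (-0.81), and from 15 to 20 Mb, 9 of 17 fell and none rose, with a median of -0.60 (-0.77). With windows of 10 Mb the first 2 of the chromosome had medians of -0.63 (-0.64) and -0.62 (-0.77), whereas the chromosome as a whole had a median of 0.10 (-0.0015).

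Genes of many functions lay in this stretch. The lysosomal protease gene CTSB stood at 686, 654 and 711 CPM in control and at 327, 323 and 319 with CCNE1, a log2 fold change of -1.08 ± 0.04 (adjusted p = 1.21e-24). FDFT1, which encodes squalene synthase, fell by 0.76, the DNA glycosylase gene NEIL2 by 1.16 and MCPH1, microcephalin, by 1.25. The lysosomal acid ceramidase gene ASAH1 fell by 1.24, the glycogen-targeting phosphatase subunit gene PPP1R3B by 1.04, TUSC3, of the oligosaccharyltransferase, by 0.70, and the deadenylase gene CNOT7 by 0.50.

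The highest windows lay on chromosomes 10, 3 and 4. On chromosome 10 from 90 to 95 Mb, 20 of 28 tested genes rose and none fell, with a median of 0.80 (0.48), and from 85 to 90 Mb 16 of 30 rose and none fell, with a median of 0.70 (0.54). KIF11, the kinesin that separates spindle poles, stood at 18.0, 15.8 and 16.8 CPM in control and 41.5, 43.7 and 45.2 with CCNE1, a log2 fold change of 1.37 ± 0.08 (adjusted p = 2.99e-17). The cytokinesis gene CEP55 rose by 1.40, ANKRD1, known as a target of YAP, by 1.19, RPP30, of ribonuclease P, by 1.07 and MYOF by 0.61. On chromosome 3 from 190 to 195 Mb, 8 of 16 rose and 1 fell, with a median of 0.73 (0.38). There the Notch effector HES1 rose by 1.69, ATP13A3 by 1.18 and the mitochondrial fusion gene OPA1 by 0.97. On chromosome 4 from 170 to 175 Mb, 4 of 11 rose and 1 fell, with a median of 0.71 (0.29), among them HMGB2, a chromatin protein of dividing cells, at 0.79.

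**Figure D4:**
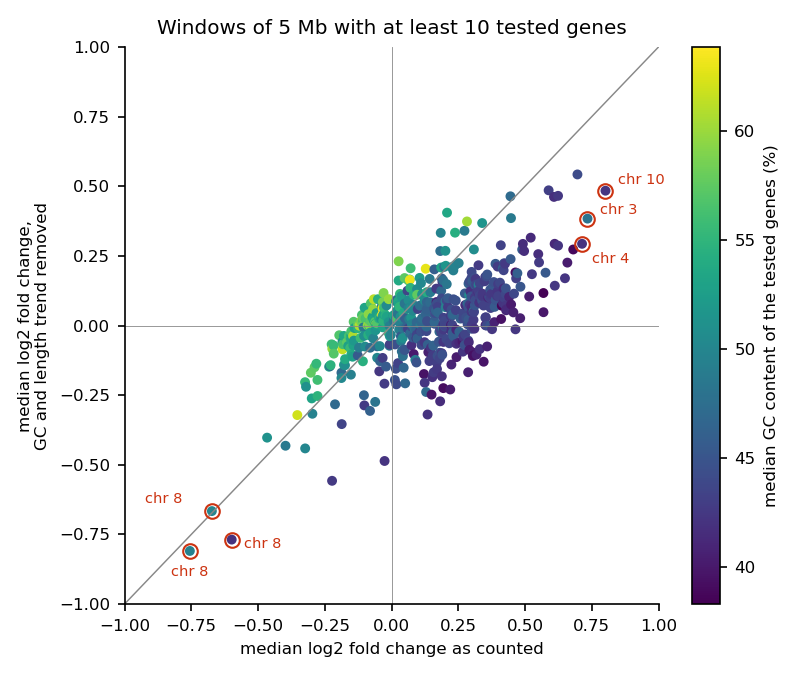
Median log2 fold change of 481 windows of 5 Mb as counted and without the GC and length trend, coloured by the median GC content of their tested genes, with the lowest 3 and highest 3 windows as counted ringed. The 3 windows of chromosome 8 lie apart at the lower left, and most windows of low GC content lie to the right of the diagonal.

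Runs of neighbouring tested genes called in one direction were short. The longest rising run held 9 genes on chromosome 5 from 123087248 to 126837020, with a median of 0.91 (0.57). It included LMNB1, the lamin B1 gene, at 0.50, the centriole gene CEP120 at 0.91, GRAMD2B at 1.04 and CSNK1G3 at 0.61. Its members ALDH7A1 at 0.16 and PHAX at 0.29 lost their calls under several settings, CEP120 lost its call without CCNE1 replicate 3 (0.56) and with the trend removed (0.52), and CSNK1G3 with the trend removed (0.14). PHAX was at -0.042 with the trend removed. A run of 8 genes on chromosome 10 from 73995193 to 75401906 had a median of 0.70 (0.59) and included the focal adhesion gene VCL at 0.59, AP3M1 at 0.95, the adenosine kinase gene ADK at 0.57 and the histone acetyltransferase gene KAT6B at 1.05. The call of VDAC2, another member of this run, was not kept under every setting. When only protein-coding genes were counted as neighbours, this run grew to 13 genes, ending at 79316528.

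The longest falling runs held 7 genes. One lay on chromosome 16 from 29811382 to 29927035, with a median of -0.63 (-0.47), and was 10 genes long among protein-coding genes, starting at 29679008. It included MVP, the major vault protein gene, which stood at 113, 108 and 113 CPM in control and 68.2, 62.5 and 66.2 with CCNE1, a log2 fold change of -0.77. SEZ6L2 was at -0.66 and KCTD13 at -0.48, and the call of CDIPT, at -0.19, was lost with the trend removed. Others lay on chromosome 3 from 49024325 to 49166321, with IMPDH2, QARS and LAMB2 at -0.23, -0.43 and -0.49, and in the stretch of chromosome 8 around CTSB. The call of IMPDH2 was lost with the trend removed.

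By annotated biotype, protein-coding genes were called most often among the larger classes. Of 13119 tested, 3690 rose and 2715 fell, which is 48.8%, and their median level was 17.2 CPM. The median level was 1.18 CPM for long intergenic RNAs, 0.986 for antisense RNAs and 2.13 for processed pseudogenes. Of 512 tested long intergenic RNAs (lincRNA) 42 rose and 67 fell, 21.3% in all, with a median of -0.17 (-0.17) and 32 changes of at least 2-fold in each direction, and of 590 antisense RNAs 27 rose and 58 fell, 14.4% in all, with a median of -0.16 (-0.10). The 63 tested sense intronic RNAs gave 6 higher and 4 lower. Processed pseudogenes went the other way, with 55 higher and 12 lower of 375 and a median of 0.18 (0.25). The share of counts from protein-coding genes was 97.3% in control and 97.5% with CCNE1.

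Single noncoding genes changed strongly. LINC02582 (chromosome 18, 73324941 to 73349878) stood at 54.4, 58.0 and 58.7 CPM in control and 8.44, 9.30 and 11.1 with CCNE1, a log2 fold change of -2.56 ± 0.12 (adjusted p = 6.01e-20). LINC00963 fell by 1.07, LINC00910 by 1.42, MIR503HG, the host gene of a microRNA cluster, by 1.15, and HCP5, a transcript of the HLA region, by 0.86. LINC01638 rose by 2.09 and LINC01819 by 1.88. Among processed pseudogenes RPL41P5 rose by 1.38 and RPL9P9 by 0.40. ANXA2P2 fell by 1.09, close to the change of its parent ANXA2, with which it shares sequence, so reads of the pair may not be told apart. The same limit applies to the other processed pseudogenes named here and to the class as a whole.

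Mitochondrial ribosomal RNA was lower. MT-RNR2, the large subunit RNA, stood at 3445, 3577 and 3715 CPM in control and 1909, 1875 and 1869 with CCNE1, a log2 fold change of -0.93 ± 0.03 (adjusted p = 2.76e-24). MT-RNR1 fell by 0.77. Together the 2 genes fell from 0.47% of all counts to 0.25%. Of 18 tested mitochondrial transfer RNA genes 6 fell and none rose, among them MT-TN at -0.60 and MT-TP at -0.61.

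The number of called genes and the size of called changes differed along expression level. In the lowest decile of tested genes by mean log2 CPM over the 6 libraries, 222 of 1538 were called, 14.4%, and each of them differed at least 2-fold. In the highest decile 1095 were called, 71.2%, of which 7 were at least 2-fold higher and 5 at least 2-fold lower. Over all tested genes, called or not, the median absolute log2 fold change fell from 0.84 in the lowest decile to 0.19 in the highest. These medians include counting error, which is larger in the lowest decile, where the median level was 0.42 CPM. They therefore do not show that genes of low level responded more. The balance changed with the level too, with 499 higher and 213 lower in the fifth decile from the bottom and 520 higher and 575 lower in the highest, while the median GC content rose from 46.1% to 55.8% between these deciles.

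The direction of change differed along GC content. In the decile of genes with the lowest GC content, 23.1 to 40.0%, 771 rose and 31 fell, with a median of 0.50. In the fifth decile, 301 rose and 254 fell, with a median of 0.00. In the eighth, 163 rose and 568 fell, with a median of -0.19. In the decile of highest GC content, 61.9 to 74.7%, 309 rose and 339 fell, so the relation was not a straight line. Whether GC content moved through the libraries' preparation or through the cells was not tested.

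**Figure D5:**
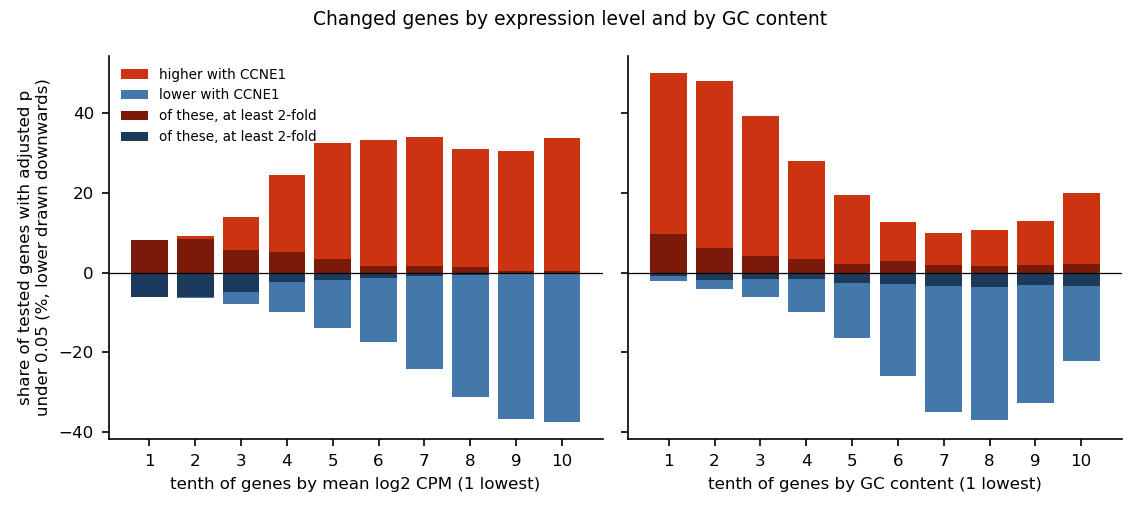
Share of tested genes with an adjusted p under 0.05, higher with CCNE1 upwards and lower downwards, by decile of mean log2 CPM and by decile of GC content, with the part at least 2-fold changed in dark. Calls rise from 14.4% to 71.2% with level while large changes become fewer, and rises dominate at low GC content.

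Genes with many counts moved the make-up of the libraries even where their folds were small. FN1, the fibronectin gene, stood at 1210, 1162 and 1209 CPM in control and at 2589, 2584 and 2580 with CCNE1, a log2 fold change of 1.11 ± 0.03 (adjusted p = 4.46e-28). The translation elongation factor gene EEF2 rose from a mean of 11140 to 13511 CPM and GAPDH from 11908 to 13379. The largest losses were those of MT-CO1, a subunit of cytochrome oxidase, from a mean of 11748 to 6949 CPM, of the cytoplasmic actin gene ACTG1 from 10741 to 8121, and of ANXA2. Both ferritin genes fell, FTL from 2885 to 2111 CPM and FTH1 from 1584 to 954, although 62.4% of the exon bases of FTH1 are shared with another annotated gene. The share of the 10 genes with most counts was 10.9 ± 0.095% in control and 10.7 ± 0.033% with CCNE1 (SD, n = 3).

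Behind the 12 largest rises and falls came genes of mixed function. Among ranks 13 to 24 of the rises, between 1.72 and 2.04 on the log2 scale, was SLCO3A1, an organic anion transporter gene, which stood at 2.09, 1.59 and 1.90 CPM in control and 7.77, 9.24 and 6.02 with CCNE1. The list also held the sulfate transporter gene SLC26A2 at 1.82, the adaptor gene GRB10 at 1.82, the transcription factor gene FOXP1 at 1.73, and HAUS3, of the augmin complex of the spindle, at 1.73. Among the same ranks of the falls, MDK, the growth factor midkine, stood at 103, 101 and 104 CPM in control and 23.2, 19.97 and 23.1 with CCNE1, a log2 fold change of -2.22 ± 0.08 (adjusted p = 6.32e-23). TXNIP, an inhibitor of thioredoxin and of glucose uptake, fell by 1.82, the neurexin gene NRXN2 by 1.93 and TIE1, an endothelial receptor kinase, by 1.97. The falls also included LRRN4CL, KCNJ8, GRIP2, MAGEL2, MARCH9 and ZFPM2, and the rises GSG1L, SAMD3, C4orf19, AMIGO2 and FBXL16. Each of these had no overlap between the groups, as the rule that named them required.

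The libraries were set against markers of the cells they could hold. Of the serous carcinoma markers, PAX8 stood at a mean of 126 CPM in control and 108 with CCNE1, MSLN at 530 and 367, and KRT7, KRT8 and KRT18 were abundant, while MUC16 had no count in any of the 6 libraries and WT1, SOX17 and KRT19 had 15 or fewer. The 13 markers together summed to 5160 to 5242 CPM in control and 8208 to 8310 with CCNE1, with 3 higher and 4 lower. The higher ones were KRT7, KRT8 and KRT18, from which the rise of the sum came. The lower ones were PAX8, MSLN, FOLR1 at -1.09 and CLDN4 at -1.32. Leukocyte markers summed to at most 2.98 CPM in any library, with PTPRC and CD3E at 0, and endothelial markers to at most 2.93 CPM. Of 8 fibroblast and mesothelium markers, COL3A1 and DCN were at 0 in every library. The sum was 908 to 975 CPM in control and 625 to 652 with CCNE1, nearly all of it from COL1A1. In this set COL1A1 at -0.54 and PDGFRB at -1.21 were lower, while CALB2 was higher at 0.76. A set of 4 muscle markers summed to 131 to 138 CPM in control and 15.9 to 19.5 with CCNE1, through ACTC1 at -3.53, TNNC1 at -2.65 and DES at -1.36, while MYH7 was at 0. The part of these marker changes in the other results was not tested.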

How the data were processed

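Per the labels' protocols, RNA extraction used Trizol, then a column with DNase, and the NEBNext Ultra 2 RNA kit made the libraries. Per the submitters' processing notes, STAR 2.6.1, DESeq2 and the GRCh38 build were used. Which program counted reads per gene, with what strand setting and rule for reads that match several genes, is not given in the sources used here. These settings can move values of paralogues and overlapping genes. The authors deposited whole-number counts per gene for 58735 genes, which served for the main test, and FPKM, which the authors deposited beside them and which served for an alternative only. All 27 gene symbols that had turned into dates in the deposited tables were replaced from GENCODE 29, whose gene positions and exon lengths matched the table for 100% of genes and which gave GC content and biotype.

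The test was that of edgeR 4.0.16, run in R 4.3.3 beside limma 3.58.1. The filter filterByExpr by group kept 15378 genes. The 12 libraries were scaled with TMM and fitted together, each group with its own mean, by the robust quasi-likelihood method (8 residual degrees of freedom). Benjamini-Hochberg adjustment ran over every tested gene. CPM came from TMM-scaled library sizes. A gene family was the set of protein-coding genes whose symbols match a pattern, so BMP2K counts among the BMP ligands. Families, chromosomes, windows, biotypes and levels were described by counts and medians, with no test of their own. The GC and length trend was a spline fitted in each library over GC content and over the length of the longest transcript (5 degrees of freedom each), taken out as an offset before refitting. Totals of 14.1 to 21.5 M counts limit precision for genes with few counts. Tested on simulated counts for this comparison (15378 genes, 100 changed at each size), 62% of 1.5-fold and 81% of 2-fold changes were recovered, with 11 false calls. The changed genes were drawn without those of the lowest mean levels, so these rates do not cover genes with the fewest counts. Only 200 genes were changed, whereas 44.2% were called in the data, so the rates may differ there.

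Named genes were the markers, their neighbours within 200 kb, ranks 13 to 24 by fold change in each direction and up to 10 of each direction by difference in mean CPM, both from called genes whose mean log2 CPM reached 1 and with no overlap between groups. To these came, per family, biotype, window and run, the called members of smallest p or largest change, and the genes at 0 in one group. The members, families and lists were chosen with earlier results of these data known. Alternatives were RLE, upper quartile and total count scaling, other filters, DESeq2 1.42.0, limma-voom, log2(FPKM + 0.1) and log2(FPKM + 1) with limma, a block on replicate number, a fit of the compared groups alone, each library left out, a threshold of 0.01 and the GC and length trend removed. All columns of the tables were used. A few genes are not reported here.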

Additional observations from a re-analysis of the deposited data

How the results depend on the processing

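The number of genes called, 6802, stayed within 1.5 times under every alternative, between 5180 at an adjusted p under 0.01 and 6802 with total counts. With the GC and length trend removed it was 5547, of which 4290 were shared in the same direction and 52 in the opposite one. Of the called genes 56.8% were higher in the main fit. The share was 51.3% with the compared groups alone and also on log2(FPKM + 1). The number at least 2-fold changed, 941, was 237 with a filter on a mean count of 100 and 123 on log2(FPKM + 1). Fewer genes are tested under that filter, and the pseudocount shrinks low genes. Leaving out a library gave 6168 to 6497 calls and 916 to 998 at least 2-fold changed. The replicate number as a block gave 6624 calls and 884 at least 2-fold changed. The deviations of same-numbered libraries correlated at -0.019, -0.006 and -0.007, so no shared effect of the replicate number was seen. This cannot show whether same-numbered libraries were prepared together, which the labels do not state. The log2 fold change of PHAX turned to -0.042 and that of RPL3 to 0.129 without the GC and length trend, and the cause was not tested. Of the calls of named genes, those of URI1, ALDH7A1, PHAX, CDH2, CDIPT, CENPH, CLDN4, CLDN9, CLDN11 and CEP120 were lost under at least 1 setting. So were those of CSNK1G3, IMPDH2, MCM3, TMEM106A, RPL3, RPS10, RPS13, RPS20, TNFRSF1A and VDAC2. Genes with few counts were called only for large changes, so a smaller change was not detectable there at this depth.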
